A study of Mus musculus with 6 samples.

Results

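Clustered protocadherins are cell-surface adhesion molecules encoded in 3 neighbouring gene clusters, alpha, beta and gamma. Every protein-coding gene whose GENCODE M21 symbol places it in 1 of these clusters was taken, which gave 57 of the 53808 mouse genes listed. The alpha cluster held 14 members, the beta cluster 22 and the gamma cluster 21. The C-type members, set apart by sequence from the rest of their clusters, were *Pcdhac1*, *Pcdhac2*, *Pcdhgc3*, *Pcdhgc4* and *Pcdhgc5*. The symbol *Pcdha11* stood for 2 gene identifiers (ENSMUSG00000007440 and ENSMUSG00000102206), so the 57 members carried 56 symbols. *Pcdhgb8* matched the symbols but is annotated as a pseudogene and was left out. In GRCm38 the members span chromosome 18 from 36930184 to 37841873, all on the plus strand.

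RNA was measured in 6 clonal lines of MIN6, a mouse insulinoma line that serves as a β cell model. All lines expressed Cas9 and had been infected with lentivirus carrying a gRNA to *Snd1*, selected with puromycin, seeded as single cells and expanded. In 3 control clones Cas9 was targeted to intron 2 of *Snd1*, and in 3 *Snd1* KO clones to exon 2. Each clone is a separate line with 1 library, so the spread within a group is the spread between clones. *Snd1* encodes a transcriptional coregulator, and it measured 113, 119 and 112 TPM in Control 1 to 3 against 14.7, 57.1 and 19.9 TPM in *Snd1* KO 1 to 3. *Snd1* KO 2 thus kept 49.8% of the control mean of *Snd1* RNA.

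In neurons, each variable exon of these clusters has its own promoter, and a single cell uses only some of them. An alpha or gamma variable exon is spliced to constant exons shared by its cluster, whereas beta members are separate genes with no shared constant exons. CTCF and cohesin link the chosen promoters to distant enhancers, promoter methylation goes with silence, and C-type members are used more uniformly between cells. The proteins bind like with like on opposing membranes, which gives neurons a surface identity. The comparison asked which members each MIN6 clone expressed, and whether *Snd1* KO clones differed from control clones.

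The clones held between 25865183 and 33055394 reads on annotated genes, and 45 of the 57 members had more than 3 reads, taken as the floor of detection, in every clone. *Pcdhb6* alone was at or under the floor in all 6 clones. A mean of at least 0.5 TPM, which a gene needed to be tested, was reached by 41 members (10 alpha, 20 beta and 11 gamma). The 16 others stayed low, and none of their clones exceeded 1 TPM. The β cell genes *Ins1*, *Ins2*, *Iapp* and *Pdx1* were expressed in every clone. Of other islet cell genes, the glucagon gene *Gcg* was measured in every clone, from 55.2 TPM in *Snd1* KO 2 to 1099.8 TPM in *Snd1* KO 1, the somatostatin gene *Sst* did not exceed 2.42 TPM, and *Hhex*, a δ cell factor, was at 0 in all. Neuronal genes were also present, with *Snap25* at 92.6 to 182 TPM and *Tubb3* at 95.3 to 171 TPM, while *Rbfox3*, a marker of mature neurons, did not exceed 0.485 TPM.

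**Figure D1:**
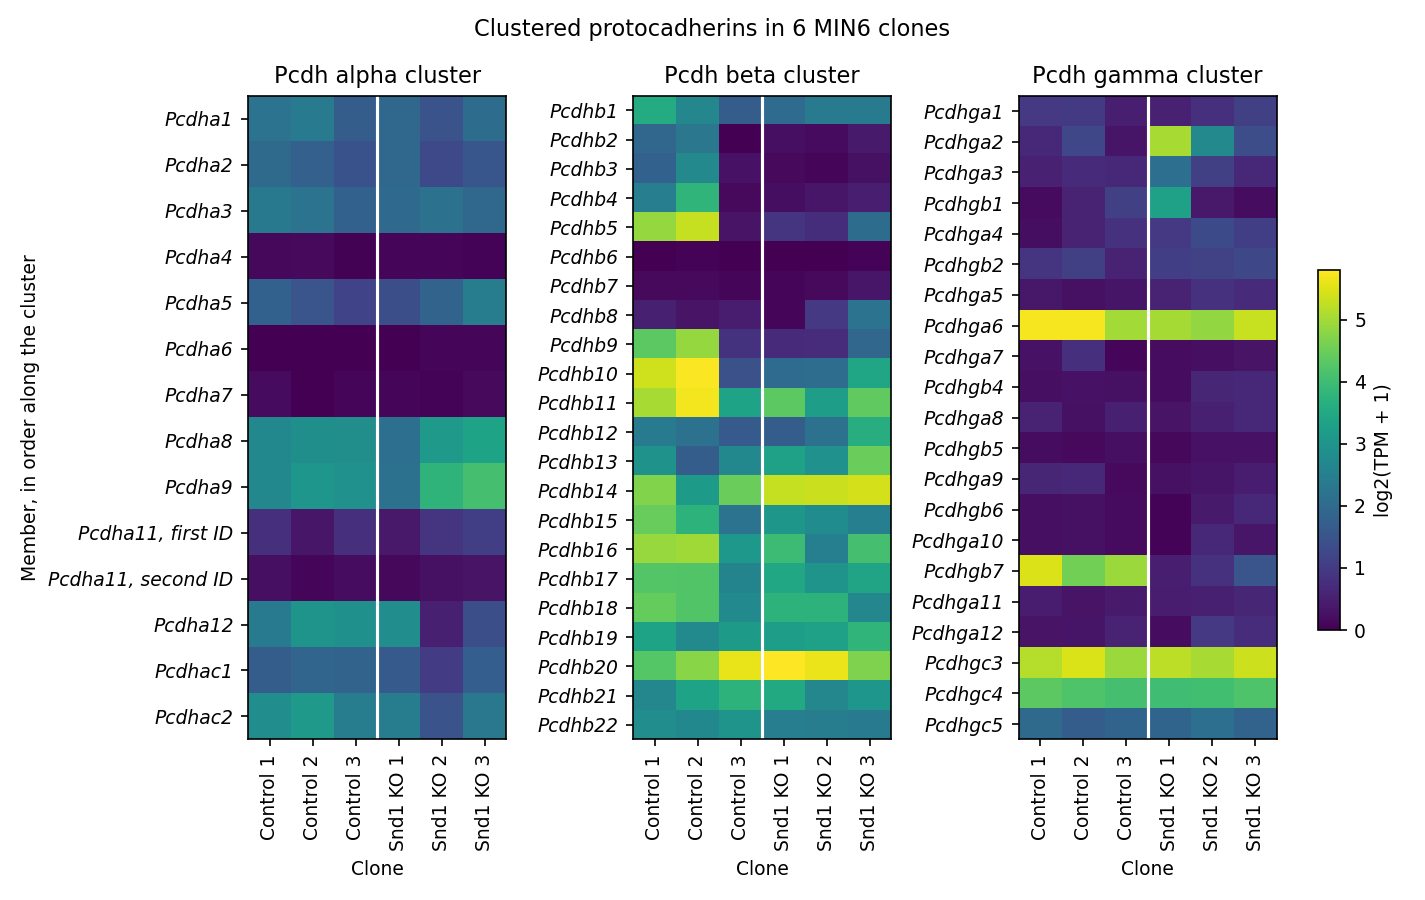
Level of each of the 57 members as log2(TPM + 1) (colour) in the 6 clones (columns, with a white line between control and *Snd1* KO), in order along each cluster. The first and second ID of *Pcdha11* are ENSMUSG00000007440 and ENSMUSG00000102206. In the beta cluster Control 1 and Control 2 form a pair from *Pcdhb2* to *Pcdhb5*, and in the gamma cluster *Pcdhgb7* is bright in the 3 control clones and dark in the 3 *Snd1* KO clones.

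The gamma cluster held the member with the widest gap between the groups. *Pcdhgb7*, a variable gamma member of the B type, measured 44.1, 22.7 and 29.6 TPM in the control clones and 0.411, 0.768 and 1.87 TPM in the *Snd1* KO clones. These values rest on 1192, 583 and 691 reads against 10, 18 and 47 reads. The groups did not overlap, and the control mean was 32.2 ± 10.9 TPM (SD, n = 3) against 1.02 ± 0.761 TPM (SD, n = 3) in *Snd1* KO. On the log2(TPM + 1) scale, which understates differences of low genes, the *Snd1* KO clones were lower by a log2 fold change of -4.05 (SE 0.34). Its unadjusted p-value by limma was 9.87e-06, but the Benjamini-Hochberg adjusted p-value over 17823 genes was 0.0879, so *Pcdhgb7* did not pass the threshold of 0.05. Clone quality weights in limma, estimated from the same expression values, gave little weight to Control 3 and *Snd1* KO 1. They brought the adjusted p-value to 0.0179, with a log2 fold change of -3.60. The other alternatives gave adjusted p-values between 0.0645 and 0.423. The exact two-sided permutation test over clones gave p = 0.1, the smallest that 3 against 3 clones allow.

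*Pcdhga2*, a variable gamma member of the A type, had the opposite order. Its levels were 0.596, 1.37 and 0.259 TPM in control and 31.9, 5.66 and 1.60 TPM in *Snd1* KO. All *Snd1* KO clones lay above all control clones, but *Snd1* KO 1 exceeded *Snd1* KO 3 by far more than the control clones differed. The log2 fold change was 2.30 (SE 0.87), with an adjusted p-value of 0.605 by limma. Without *Snd1* KO 1 it was 1.31. *Pcdhgb1*, chosen after its values were seen, was high in the same clone alone, at 8.93 TPM in *Snd1* KO 1 against 0.125, 0.462 and 1.16 TPM in control and 0.313 and 0.135 TPM in the other *Snd1* KO clones.

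*Pcdhga4* was the other tested gamma member without overlap, at 0.158, 0.499 and 0.768 TPM in control and 0.947, 1.46 and 1.12 TPM in *Snd1* KO. The lowest of these values was 5 reads, and the log2 fold change was 0.57 (SE 0.27, adjusted p = 0.607 by limma). *Pcdhga5*, chosen after its values were seen and too low to be tested, also lay higher in every *Snd1* KO clone, at 0.197 to 0.299 TPM in control and 0.499 to 0.776 TPM in *Snd1* KO. *Pcdhga6* was abundant in every clone. It measured 52.2, 52.0 and 31.0 TPM in control and 31.3, 28.0 and 39.1 TPM in *Snd1* KO, and the groups overlapped.

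The C-type gamma members varied least. *Pcdhgc3* measured 34.9, 43.5 and 29.7 TPM in control against 36.3, 32.2 and 40.0 TPM in *Snd1* KO. The difference on the log2 scale was 0.017 (SE 0.17, adjusted p = 0.988 by limma), and its sign turned under other scalings. *Pcdhgc4*, which lies next to it, measured 19.3, 17.5 and 16.0 TPM in control and 15.2, 15.4 and 17.5 TPM in *Snd1* KO. *Pcdhgc5*, the last variable exon of the cluster, stayed between 2.27 and 3.34 TPM in all clones. For each of these 3 members the groups overlapped, and the highest clone exceeded the lowest by 1.27-fold to 1.47-fold.

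**Figure D2:**
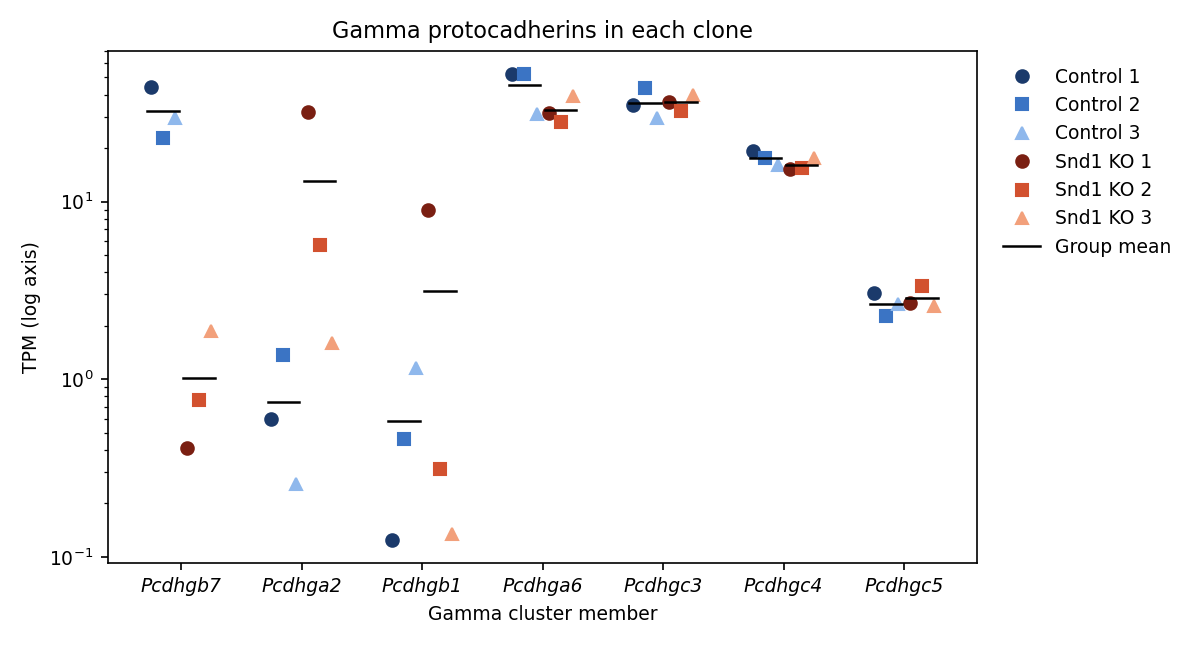
TPM (log axis) of 7 gamma members in each clone, with symbols for clones and black bars for group means. *Pcdhgb7* separates control from *Snd1* KO, *Pcdhga2* separates them in the other direction with a wide spread among *Snd1* KO clones, and the C-type members lie level across all 6 clones.

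The beta cluster varied most between clones, but along another line than the groups. *Pcdhb5* measured 28.7 and 38.0 TPM in Control 1 and Control 2, 0.229 TPM in Control 3, and 0.822, 0.683 and 3.13 TPM in the *Snd1* KO clones. *Pcdhb9* was at 19.3 and 28.5 TPM in Control 1 and Control 2, and at 0.794 TPM in Control 3 and 0.634, 0.658 and 2.76 TPM in *Snd1* KO. *Pcdhb10* had 40.7 and 53.8 TPM in that pair, 1.70 TPM in Control 3 and 3.06, 3.25 and 9.61 TPM in *Snd1* KO. In all 3 genes Control 3 lay with the *Snd1* KO clones, apart from the other control clones. Their log2 fold changes were -2.27 (SE 1.29) for *Pcdhb5*, -2.24 (SE 1.04) for *Pcdhb9* and -1.69 (SE 1.14) for *Pcdhb10*, and none passed the threshold. Each value rests on which control clones enter, since without Control 3 they were -3.87, -3.50 and -3.07, without Control 1 -1.57, -1.75 and -1.10, and without Control 2 -1.37, -1.48 and -0.90, in the same order. *Pcdhb2* and *Pcdhb4*, chosen after their values were seen, had the same pair on top, with 2.78 and 3.93 TPM for *Pcdhb2* and 4.60 and 12.95 TPM for *Pcdhb4* against at most 0.404 TPM in the other 4 clones.

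Control 1 and Control 2 were the 2 highest clones for 12 of the 20 tested beta members, 3 of the 10 alpha and 1 of the 11 gamma members tested, whereas they were so for 16.2% of all genes tested. *Pcdhb3* was the beta member of this kind whose groups did not overlap, at 2.49, 5.63 and 0.213 TPM in control against 0.102, 0.0531 and 0.198 TPM in *Snd1* KO. Control 3 held 4 reads of it and the *Snd1* KO clones 2, 1 and 4 reads, so a difference between these 4 clones was not detectable at this depth. The same pair of control clones stood apart in a list of 8 mesenchymal markers, whose summed level was 7.35 and 6.82 TPM in Control 1 and Control 2 and 0.379 to 1.58 TPM in the other 4 clones. Of the 8 markers, 6 were higher in both of these clones than in every other clone, and none was at 0 in all 6. *Col3a1*, a collagen chosen after its values were seen, accounted for 1.68 and 1.73 TPM of those sums and did not exceed 0.111 TPM elsewhere. The part of such cells in the beta result was not tested. In bulk RNA, fewer cells that use a member and less RNA per cell cannot be told apart.

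Other beta members followed different orders. *Pcdhb14* measured 24.97, 7.97 and 21.3 TPM in control and 38.0, 39.2 and 42.3 TPM in *Snd1* KO, with no overlap. Its log2 fold change was 1.24 (SE 0.39), with an unadjusted p-value of 0.0158 by limma and an adjusted p-value of 0.568. Control 2 was the lowest clone, and without it the log2 fold change was 0.76. *Pcdhb22*, the last beta gene, lay lower in every *Snd1* KO clone, at 6.21, 5.59 and 6.99 TPM against 4.56, 4.42 and 4.25 TPM, a log2 fold change of -0.42 (SE 0.16, adjusted p = 0.605 by limma). *Pcdhb20* measured 18.3, 26.5 and 48.1 TPM in control and 54.9, 48.9 and 24.9 TPM in *Snd1* KO, so that Control 3 again lay with *Snd1* KO 1 and *Snd1* KO 2. *Pcdhb11* measured 31.8, 51.0 and 9.28 TPM in control and 19.3, 8.42 and 19.8 TPM in *Snd1* KO, also with overlap.

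**Figure D3:**
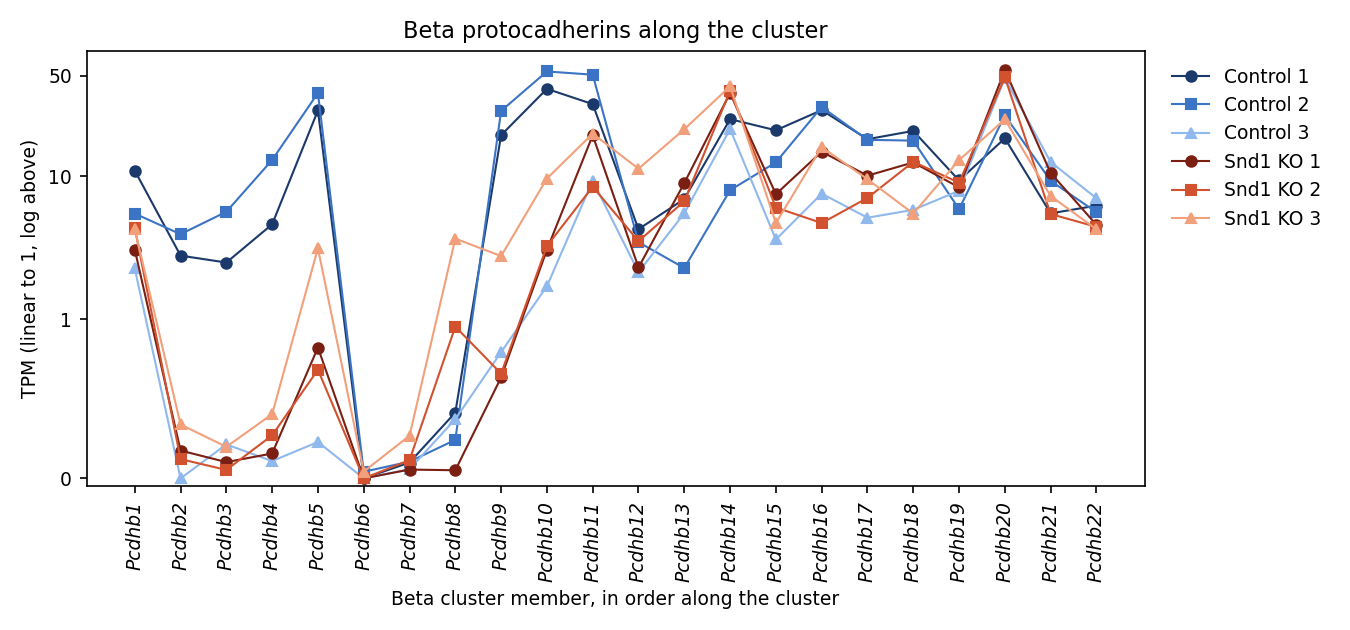
TPM of the 22 beta members in order along the cluster, 1 line per clone (the axis is linear to 1 TPM and logarithmic above). Control 1 and Control 2 lie above the other 4 clones from *Pcdhb2* to *Pcdhb5* and again at *Pcdhb9* and *Pcdhb10*, and the lines lie close together at *Pcdhb19* and *Pcdhb22*.

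*Snd1* KO 2 and *Snd1* KO 3 were the 2 highest clones for 4 of the 10 tested alpha members, 2 of the 20 beta and 2 of the 11 gamma members tested, against 16.7% of all genes tested. *Pcdha9* measured 5.59, 7.26 and 6.66 TPM in control and 3.52, 12.7 and 16.1 TPM in *Snd1* KO. *Pcdha8*, its neighbour, measured 5.56, 6.47 and 6.32 TPM in control and 3.38, 7.69 and 9.31 TPM in *Snd1* KO. In both genes *Snd1* KO 1 was the lowest of the 6 clones and *Snd1* KO 2 and *Snd1* KO 3 the highest. *Pcdha12* was instead highest in *Snd1* KO 1 among the *Snd1* KO clones, at 6.21, 0.415 and 1.62 TPM against 4.25, 7.06 and 6.51 TPM in control. Its log2 fold change was -1.19 (SE 0.57, adjusted p = 0.608 by limma), with -1.83 when *Snd1* KO 1 was left out and -0.65 when *Snd1* KO 2 was.

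The C-type alpha member *Pcdhac2* was the only tested alpha member without overlap, at 6.20, 7.84 and 4.46 TPM in control and 4.41, 1.81 and 4.05 TPM in *Snd1* KO. The gap between Control 3 and *Snd1* KO 1 was 130 against 134 reads, at different depths. Its log2 fold change was -0.73 (SE 0.32, adjusted p = 0.607 by limma), and -0.43 without *Snd1* KO 2. *Pcdhac1*, the other C-type alpha member, measured 2.29, 2.71 and 2.61 TPM in control and 2.15, 1.04 and 2.32 TPM in *Snd1* KO, and these overlapped.

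Levels of different members were compared as reads per kilobase of exon belonging to 1 gene only, per 1000000 reads (own-exon level), because the constant exons belong to many members at once. By this measure *Pcdhgc3* was highest with a mean of 22.2, followed by *Pcdhga6* with 12.5, *Pcdhgc4* with 8.99, *Pcdhb20* with 6.66 and *Pcdhgb7* with 5.39. The highest alpha member was *Pcdha9* at 3.32. These levels leave exon bases shared with genes on the same strand out of the length. Since the strand setting of the counting is not given, bases overlapped on either strand were also left out of the length. The reads stayed the same, so the resulting level is too high if reads on those bases were counted. The mean of *Pcdhgc3* was then 41.2 and that of *Pcdhgb7* 7.68, above *Pcdhb20*, and *Pcdhgc3* made up 43.7% to 61.5% of the gamma level. With same-strand overlap, *Pcdhgc3* made up 32.2% to 46.7% of the gamma own-exon level of a clone, *Pcdhga6* 16.8% to 26.0% and *Pcdhgc4* 13.5% to 18.4%. *Pcdhgb7* held 21.5%, 11.4% and 19.1% of it in control and 0.221%, 0.556% and 1.15% in *Snd1* KO. *Pcdhga2* took 17.2%, 4.11% and 0.987% in the *Snd1* KO clones, against 0.167% to 0.691% in control.

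In the alpha cluster *Pcdha9* held 12.5%, 14.4% and 17.2% of the own-exon level in control and 9.83%, 33.6% and 30.7% in *Snd1* KO. *Pcdha12* held 9.503%, 14.0% and 16.9% in control, 17.4% in *Snd1* KO 1 and 1.10% and 3.09% in *Snd1* KO 2 and *Snd1* KO 3. *Snd1* KO 2 and *Snd1* KO 3 thus resembled each other in these alpha members, and *Snd1* KO 1 did not resemble them. In the beta cluster *Pcdhb20* held 32.9% in Control 3, 27.1% in *Snd1* KO 1 and 29.0% in *Snd1* KO 2, but 5.92%, 7.73% and 12.004% in Control 1, Control 2 and *Snd1* KO 3. By TPM, the highest beta member was *Pcdhb10* in Control 1 and Control 2, *Pcdhb20* in Control 3, *Snd1* KO 1 and *Snd1* KO 2, and *Pcdhb14* in *Snd1* KO 3. The highest gamma member by TPM was *Pcdhga6* in the 3 control clones and *Pcdhgc3* in the 3 *Snd1* KO clones, but by own-exon level *Pcdhgc3* was highest in all 6 clones.

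**Figure D4:**
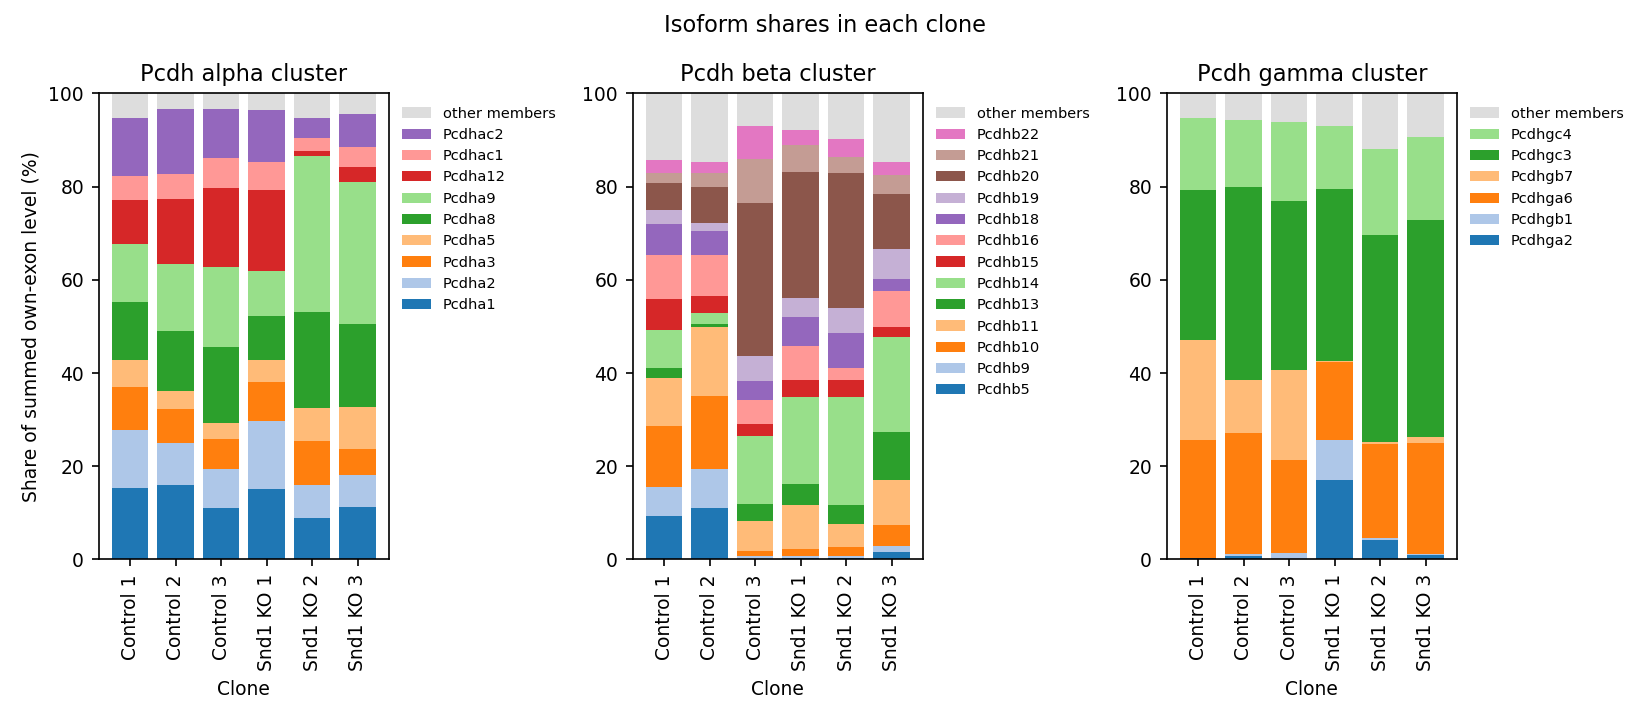
Share of each cluster's own-exon level (percent, bars stacked to the full level) held by its members in each clone, with members under 6% in every clone joined as other members. *Pcdhgb7* takes 11.4% to 21.5% of the gamma level in control and at most 1.15% in *Snd1* KO, and *Pcdhb20* leads the beta level in Control 3, *Snd1* KO 1 and *Snd1* KO 2.

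No clone used a single member of a cluster. The effective number of members, the inverse Simpson index of the TPM shares, was 8.63, 7.63 and 7.33 in control and 8.14, 4.68 and 5.44 in *Snd1* KO for the alpha cluster. For the beta cluster it was 12.95, 10.8 and 6.08 in control and 7.04, 6.17 and 10.03 in *Snd1* KO. For the gamma cluster it stayed between 3.62 and 4.96. By this index the groups overlapped in each cluster, and the beta values of control spanned the widest range. With another index, the exponential of the Shannon entropy, the gamma members without the C-type did not overlap, at 2.78, 3.05 and 3.18 in control and 4.12, 4.51 and 3.30 in *Snd1* KO. With the C-type members the groups overlapped by that index, at 4.97, 5.13 and 5.46 in control and 6.24, 6.26 and 5.23 in *Snd1* KO. Without the C-type they also overlapped by the inverse Simpson index.

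The make-up of the clones was also compared by Pearson's r of log2(TPM + 1) over the members of a cluster, as a description, since members are not independent replicates. Over the 22 beta members r was 0.913 between Control 1 and Control 2, 0.970 between Control 3 and *Snd1* KO 1, and 0.390 between Control 2 and Control 3. Over the 21 gamma members r was 0.975 to 0.986 among control clones, 0.770 to 0.964 among *Snd1* KO clones and 0.593 to 0.915 between the groups. Over the 14 alpha members *Snd1* KO 1 lay nearer to the control clones (0.947 to 0.978) than to *Snd1* KO 2 (0.631). In the gamma cluster each clone was most like a clone of its own group by r, but not by Spearman's rho, by which Control 3 was nearest to *Snd1* KO 1 (0.722) and *Snd1* KO 1 to Control 2 (0.760). Control 3 in the beta cluster and *Snd1* KO 1 in the alpha and beta clusters were most like a clone of the other group by r. Over all genes tested r was at least 0.936 for every pair of clones. There too Control 1 and Control 2 were the nearest pair (0.978), and Control 3 was nearer to *Snd1* KO 3 (0.959) than to Control 1 (0.954) or Control 2 (0.951).

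Summed over a cluster, the groups overlapped. The alpha total averaged 39.2 ± 4.46 TPM over control clones and 37.3 ± 8.90 TPM over *Snd1* KO clones (SD, n = 3 each). The beta total was 306, 339 and 142 TPM in control and 200, 166 and 204 TPM in *Snd1* KO, so that Control 3 was the lowest clone of all. The gamma total averaged 140 ± 22.9 TPM over control clones and 114 ± 19.8 TPM over *Snd1* KO clones (SD, n = 3 each). The ratios of group means on the log2 scale were -0.07, -0.46 and -0.30 for alpha, beta and gamma, with no test.

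No member was called in *Snd1* KO against control (0 of 41 tested, where called means an adjusted p-value by limma under 0.05 and at least a 2-fold change), and 0.00561% of all genes were, namely 1 gene. *Snd1* itself, with a log2 fold change of -2.11, was not called either (adjusted p = 0.511 by limma). The absence of calls thus does not show that members were unchanged. At an unadjusted p-value under 0.05 by limma, 2 members were higher and 3 lower, against 5.63% of all genes higher, 2.33% lower and 7.96% in either direction. Weighted by clone quality, limma called 11 of the 41 members (9 lower, 2 higher, and 9 of them beta), or 26.8%, against 5.02% of all genes. The weights, estimated from the same expression values, were 0.279 for Control 3, 0.286 for *Snd1* KO 1 and 3.91 for *Snd1* KO 3. Control 3 and *Snd1* KO 1 thus entered that count with little weight. The log2 fold change was positive for 18 members and negative for 23, with a median of -0.16 beside 0.044 over all genes tested. With quantile normalization 13 were positive and 28 negative, and the median of the gamma members, 0.082 as deposited, turned to -0.0052, while the median over all genes tested was -0.011.

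All *Snd1* KO clones lay above all control clones for 3 of the 41 members, *Pcdhb14*, *Pcdhga2* and *Pcdhga4*, or 7.32%, against 9.69% of all genes tested. They lay below for 4 members, *Pcdhac2*, *Pcdhb3*, *Pcdhb22* and *Pcdhgb7*, or 9.76%, against 4.03% of all genes. Leaving out clones was chosen after seeing the data, when Control 3 was known to lie with the *Snd1* KO clones in several beta members. Without Control 3 the count below was 18 of 41, or 43.9%, 13 of them beta, against 17.9% of all genes. Beta members that share this order of clones are not independent, so a rise in that count was built in. The count above stayed at 3, against 17.2% of all genes. Without *Snd1* KO 1 the count above was 10, against 22.6% of all genes.

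**Figure D5:**
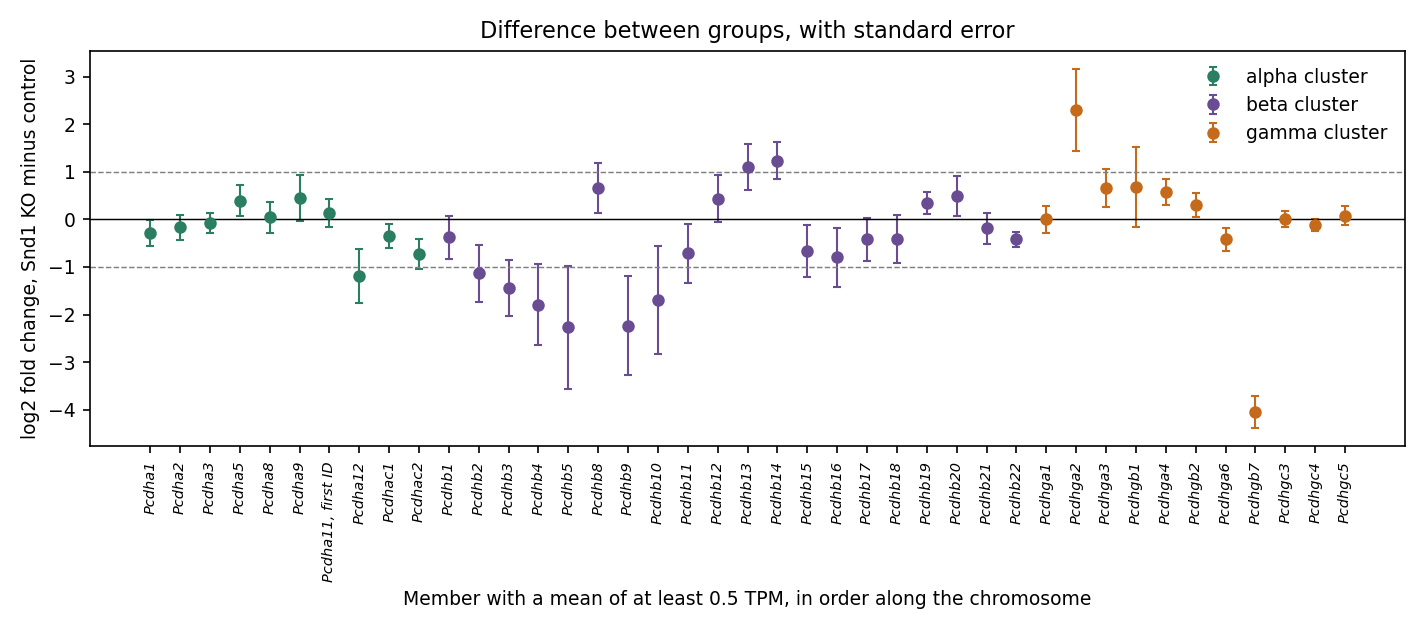
log2 fold change of *Snd1* KO against control on the log2(TPM + 1) scale for the 41 tested members, with bars of 1 standard error and dashed lines at a 2-fold change. *Pcdhgb7* lies at -4.05 with a short bar, while *Pcdhb5*, *Pcdhb9*, *Pcdhb10* and *Pcdhga2* have long bars that show the spread between clones of a group.

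Members varied more between clones of the same group than most genes did. The median SD of log2(TPM + 1) within groups was 0.589 over the tested members and 0.267 over all genes tested. It was 0.771 for beta, 0.386 for alpha, 0.287 for gamma and 0.219 for the C-type members. The within-group SD of 12 of the 20 tested beta members exceeded 0.748, the 90th percentile of all genes. It did so for 1 of the 10 alpha and 2 of the 11 gamma members tested. Over genes tested under 60 TPM the median SD was 0.284, near that of gamma. Coding genes next to the clusters varied less. Of 18 such genes between or within 200 kb of them, 14 were tested, and their median SD was 0.216, with the largest at 0.399. *Ndufa2*, a subunit of respiratory complex I, *Hars*, a histidyl-tRNA synthetase, and *Ik*, a splicing factor, were the highest of them. Their log2 fold changes and those of the other tested neighbours lay between -0.22 and 0.27.

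Genes that control promoter choice or act with the proteins were described as a list of 49, of which 48 were tested. None was called, and none had an unadjusted p-value under 0.05 by limma. Of 11 tested genes for CTCF, cohesin and its loaders, all had positive log2 fold changes (median 0.16), although 1 turned negative with median ratio scaling, and of all 17823 genes tested 10208 were positive. *Ctcf* itself, named like *Smchd1* after its values were seen, measured 96.7, 85.2 and 78.4 TPM in control and 63.2, 104 and 104 TPM in *Snd1* KO. *Nipbl*, which loads cohesin, measured 97.1, 98.5 and 72.2 TPM in control and 103, 103 and 106 TPM in *Snd1* KO, and *Smc1a*, a cohesin subunit, 160, 144 and 131 TPM against 163, 172 and 163 TPM. The groups did not overlap for either gene or for *Pds5a*, which also acts on cohesin.

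Among chromatin and DNA methylation genes, the methyltransferase *Dnmt3a* measured 28.3, 29.0 and 33.0 TPM in control and 34.4, 34.2 and 41.1 TPM in *Snd1* KO, without overlap. Its log2 fold change was 0.27 (SE 0.12, adjusted p = 0.607 by limma). *Dnmt3b*, a methyltransferase known for methylating protocadherin promoters, was far lower, at 0.375, 0.334 and 0.448 TPM against 0.589, 0.749 and 0.579 TPM. *Smchd1*, which silences clustered protocadherins in other tissues, measured 39.0, 38.9 and 32.2 TPM in control and 46.04, 38.9 and 43.3 TPM in *Snd1* KO. *Ptk2b*, a kinase that cytoplasmic protocadherin domains bind, was the only one of the 22 signaling and processing genes without overlap, at 1.41, 1.07 and 1.67 TPM against 2.82, 1.76 and 1.69 TPM. Over the whole list the groups did not overlap for 6 of the 48 tested genes, all higher in *Snd1* KO, beside 9.69% higher and 4.03% lower of all genes tested. The median log2 fold change of the list was 0.098, beside 0.044 over all genes tested.

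Reads of the alpha and gamma members could be assigned only in part. The median share of a member's exonic bases that belong to 1 gene only was 46.4% for alpha, 55.4% for gamma and 100% for beta. Variable exons also resemble each other. Of all 100-base stretches of a first exon, the share found in the transcripts of other genes reached 12.95% in alpha, 10.7% in gamma and 2.31% in beta members, and it was 0 for *Pcdhgb7*, *Pcdhga2*, *Pcdhga6* and all C-type members. Coding genes without an exonic base of their own, 126 in all, had a median of 0 reads, and 3 of them exceeded 20 reads. Reads in constant exons were thus mostly left out by the counting. Reads in the stretches that resemble other genes may be left out or split between members, so low alpha values are the least certain.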

How the data were processed

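RNA of 6 MIN6 clones was sequenced as paired ends after cDNA preparation (Takara) and Nextera XT library preparation, and the reads were processed on the Genialis platform. The submitters' processing notes name mm10, FastQC, Trimmomatic, HISAT2, HTSeq and DESeq2, with no role given. The annotation release and the strand setting of the counting are not given in the sources used here, and 13 members overlap exons on the opposite strand. The authors deposited TPM values per gene, which sum to 1000000 per clone with 92 ERCC controls. Groups were taken from the genotype labels.

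Identifiers were matched to GENCODE M21, which held 53706 of 53808 genes. The members and gene lists were chosen with earlier results of these data known. With TPM multiplied by gene length, taken as the exons of every transcript summed, whole multiples of a step per clone came out for 93.5% of the values above 0 (within 0.01) and for every member. These recovered reads gave the depth. The depth exceeds the number of reads the study gives per library, and whether each mate of a pair was counted is not given, so recovered reads may stand for fewer fragments. The floor covers counting error only.

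*Snd1* KO was compared with control on log2(TPM + 1) over genes averaging 0.5 TPM or more by limma 3.58.1 (R 4.3.3, eBayes with a trend) with Benjamini-Hochberg adjustment over 17823 genes, tested on simulated data with 200 changed genes. The study's 2-fold and 0.05 thresholds were used. Exact permutation tests compared single genes. Named members were all C-type members, the 3 highest of each cluster, the highest in each clone, tested members without overlap between groups, the 5 with the largest SD, regulators without overlap, and the 3 highest neighbours. Others are marked. Python 3.11.15, numpy 2.4.6, pandas 2.3.3 and matplotlib 3.10.9 were used. No set test was run, and qPCR, insulin secretion and immunoblot data were not used here. Alternatives were other pseudocounts, filters, scalings, weights, a replicate block, voom on the recovered reads and leaving out each clone.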

Additional observations from a re-analysis of the deposited data

How the results depend on the processing

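Depth limits members with few reads, such as *Pcdhb3* at 1 to 4 reads in 4 clones. In all, 0 members were called under every alternative run except clone quality weights, which called 11, and an unadjusted p-value under 0.05 by limma, which gave 5. In the other alternatives (pseudocounts 0.1 and 0.01, no filter, quantile normalization, a mean of 5 TPM or more, median ratio scaling, no trend, voom, the replicate block and leaving out each clone) the count stayed at 0. The replicate block, by clone number, gave 0 members called. Clone numbers only name the clones, since same-numbered clones had correlations of deviations of 0.051, -0.122 and -0.0736. With clone quality weights *Pcdha12*, *Pcdhb3*, *Pcdhb5*, *Pcdhb9* and *Pcdhgb7* passed the threshold.

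The count of members without overlap ranged from 3 to 10 above and from 4 to 18 below when each clone was left out. That alternative was chosen after seeing the data. Under the stricter filter of 5 TPM the count below was 2, since *Pcdhac2* and *Pcdhb3*, averaging 4.79 and 1.45 TPM, dropped out. The share of all genes was not taken under that filter, so this count was not compared with a background. Members with small differences changed sign. *Pcdha8* had a log2 fold change of -0.047 with quantile normalization and -0.20 to 0.41 without each clone. *Pcdhgc3* had -0.013 with weights, -0.029 with median ratio scaling, -0.0052 with quantile normalization and -0.11 to 0.16 without each clone. *Pcdhgc5* had -0.075 with quantile normalization and -0.0029 to 0.16 without each clone. The cause was not tested. The log2 ratio of totals without each clone was -0.28 to 0.056 for alpha, -0.76 to -0.23 for beta and -0.44 to -0.19 for gamma. The mean effective number of members, 8.85 for beta and 4.21 for gamma, was 11.7 and 5.55 as the exponential of the Shannon entropy, and 2.32 for gamma without C-type members. Of the other values, 314 for single genes and 74 for counts, totals and medians kept their direction and side of the threshold or moved by less than the spread between clones.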

Other observations

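*Ret*, a receptor tyrosine kinase known to associate with clustered protocadherins, had the largest log2 fold change of the list of 49 regulators and partners, at 2.81 (SE 1.33, adjusted p = 0.607 by limma). It measured 0.123, 0.111 and 3.13 TPM in control and 79.3, 11.3 and 0.792 TPM in *Snd1* KO, so the groups overlapped. *Snd1* KO 1 and *Snd1* KO 2 were its highest clones, as they were for *Pcdhga2*. It was chosen after its values were seen.

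*Gm20162*, a processed pseudogene inside the beta cluster that was chosen after its values were seen, measured 3.41, 8.23 and 0.464 TPM in control and 0.667, 0.462 and 1.94 TPM in *Snd1* KO. Control 1 and Control 2 were its highest clones, as for *Pcdhb5*.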
